A study of Mus musculus with 95 samples.

Results

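Deletion of Fkbp5 with the Dlx driver was examined in the female bed nucleus of the stria terminalis in mice, in 6 knockout and 6 wild-type libraries out of the 95 libraries of the series. They are all libraries whose labels give the line FKBP51-Dlx-Cre, the bed nucleus, the female sex and one of the genotypes. The knockouts carry the numbers 6, 7, 8, 18, 19 and 21 and the wild types the numbers 1, 3, 9, 10, 11 and 14. Both groups are of the C57BL/6 background, were untreated and were sampled at baseline. Age, the Cre and floxed alleles of the wild types and any pooling are not given in the sources used here. The rest of the series holds the other sex, the dorsal hippocampus and the line FKBP51-Nex-Cre, which deletes Fkbp5 in forebrain glutamatergic neurons. Whether the numbers stand for litters or preparation days is not stated, so a p-value measures the spread between these libraries only.

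Fkbp5 encodes FKBP51, an immunophilin that binds HSP90 and holds the glucocorticoid receptor in a state of low hormone affinity. Glucocorticoids induce Fkbp5 through the same receptor, which forms a short feedback loop in stress responsive tissue. The Dlx driver is active in forebrain GABAergic neurons, the main neuron class of the bed nucleus, a part of the extended amygdala that joins limbic input to hypothalamic stress output. Other cells of the tissue, among them glia, vessel cells and glutamatergic neurons, keep the gene.

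The knockout libraries held about 21213300 to 23743700 counts and the wild-type libraries 20753200 to 27020600, with 24679 to 25247 genes counted at least once in knockouts and 24892 to 25702 in wild types. Levels are given as CPM, the counts of a gene scaled to the library total. The labelled region stood apart from the dorsal hippocampus of the same line and sex: Gad2, the GABA-synthesising enzyme, lay between 716 and 1009 CPM, scaled over both regions, in the 12 bed nucleus libraries, against 60.2 to 200 CPM in the 12 hippocampal ones, and Neurod6, a gene of cortical and hippocampal glutamatergic neurons, lay between 0.179 and 6.03 CPM, against 114 to 255 CPM. On the first principal component, which took 35.7% of the variance, knockouts 7 and 8 stood at -52.0 and -28.5 knockouts 18 and 21 at 28.9 and 22.7, and wild type 1 at 39.1, while the other 7 libraries lay between -7.73 and 11.2.

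Fkbp5 was lower in every knockout than in any wild type. The gene (ENSMUSG00000024222, chromosome 17, 28399094 to 28517527 on GRCm38) had 12.1, 12.7, 8.76, 5.33, 7.99 and 5.75 CPM in knockouts 6, 7, 8, 18, 19 and 21, against 28.9, 28.0, 27.6, 31.1, 24.5 and 26.8 CPM in wild types 1, 3, 9, 10, 11 and 14. The groups did not overlap, and the spread among the knockouts was wider on a relative scale than among the wild types. The means were 8.79 ± 3.12 CPM in knockouts and 27.8 ± 2.19 CPM in wild types (SD, n = 6 each), so that 31.6% of the wild-type level remained. Single knockouts held between 19.2% (library 18) and 45.8% (library 7) of the wild-type mean. The log2 fold change was -1.66 (SE 0.17) by edgeR's quasi-likelihood test, with a Benjamini-Hochberg adjusted p of 6.62e-06. That fit took its spread from male libraries too. The same test on the 12 female libraries alone gave -1.66, with an adjusted p of 0.014. An exact two-sided permutation test on the 12 libraries gave p = 0.00216, the smallest this design can give. The counts cover whole genes and do not show which exons were lost, so cells outside the Dlx lineage, incomplete deletion and transcripts of the deleted allele cannot be told apart in the remaining level.

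**Figure D1:**
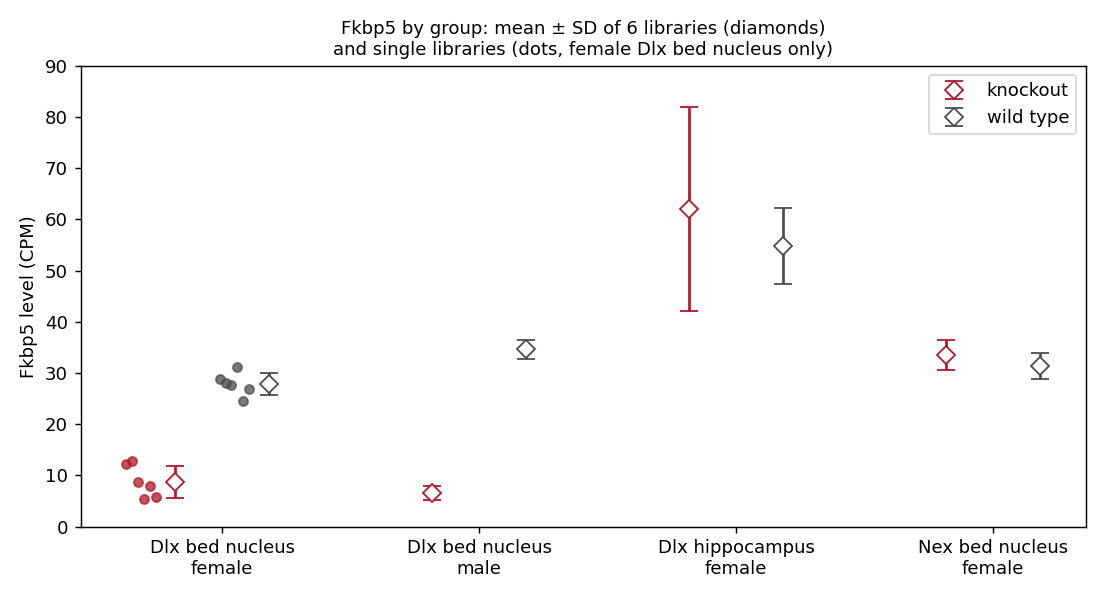
Fkbp5 level in CPM in knockouts and wild types of 4 groups, as the mean ± SD of 6 libraries (diamonds), with the single libraries of the female Dlx bed nucleus as dots. The 6 female bed nucleus knockouts sit between 5.33 and 12.7 CPM, below the wild types at 24.5 to 31.1 CPM.

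In males of the same line and region Fkbp5 averaged 6.52 ± 1.36 CPM in knockouts and 34.6 ± 1.90 CPM in wild types (SD, n = 6 each), a log2 fold change of -2.41. The female minus male difference of these effects was 0.74 on the log2 scale and missed the threshold over all genes (edgeR's quasi-likelihood test, unadjusted p = 0.00361, Benjamini-Hochberg adjusted p = 0.53). In the hippocampus of Dlx females the level was 62.0 ± 19.8 CPM in knockouts and 54.7 ± 7.43 CPM in wild types, and in the bed nucleus of Nex females 33.4 ± 2.93 CPM in knockouts and 31.4 ± 2.55 CPM in wild types. The effect in the Dlx bed nucleus was more negative than that in the hippocampus by -1.84 (adjusted p = 0.0209) and than that in the Nex line by -1.75 (adjusted p = 1.98e-07; edgeR quasi-likelihood, Benjamini-Hochberg adjusted, for both). The hippocampal difference lost its call without knockout 8 (adjusted p = 0.0559), knockout 19 (0.0662), wild type 1 (0.052) or wild type 10 (0.0588) of the bed nucleus. Of the 12 bed nucleus libraries 11 share their genotype and number with a hippocampal one, and with that number as a block the call was lost (-1.82, adjusted p = 0.416). Hippocampal knockout library 8 held 17863 genes with counts, fewer than the 24247 to 24966 of the other hippocampal knockouts, and without it the difference was -1.69 (adjusted p = 0.0106).

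Beyond Fkbp5 no gene passed the threshold. Of 18547 genes tested, 1 was called, which is 0.00539%, at an adjusted p under 0.05. At an unadjusted p under 0.05, 515 genes were higher in knockouts (2.78% of those tested) and 535 were lower (2.88%), 1050 in all (5.66%), and the median log2 fold change of all genes was -0.0005. The groups did not overlap for 18 genes that were higher in knockouts (0.0971%) and 32 that were lower (0.173%). Since no further gene passed, the lists below are described by levels and counts at the unadjusted p, to be read against these shares. Fits that leave out a library have shares of their own. Without knockout 6, 690 of 18722 genes were higher and 744 lower at that p. Without knockout 7, 254 of 18714 were higher and 358 lower. Dlx5, of the gene family the driver is named for, had a median of 16.4 CPM in knockouts and 16.6 CPM in wild types, and its neighbour Dlx6 20.2 CPM in knockouts and 17.2 CPM in wild types (log2 differences -0.15, SE 0.20, and 0.04, SE 0.21).

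Markers of thalamic relay neurons, which lie behind the bed nucleus, were higher in 3 of the knockouts. All 17 listed thalamic genes had a positive log2 difference, 10 of them at an unadjusted p under 0.05 against 2.78% of all genes, with a list median of 1.39. The mean level of the list, as log2(CPM + 0.5), was 7.03 in knockout 7, 5.59 in knockout 8 and 4.99 in knockout 19, and 3.62 to 3.96 in the other 3 knockouts, against 3.13 to 4.26 in the wild types. Prkcd, a protein kinase C gene of first-order thalamic nuclei, had 637.3 CPM in knockout 7 and 209 CPM in knockout 8, and 35.6 to 56.4 CPM in the other knockouts, against 27.0 to 49.7 CPM in wild types. Its log2 fold change was 2.33 (SE 0.75, unadjusted p = 0.00461, adjusted p = 0.813 in the edgeR quasi-likelihood test, Benjamini-Hochberg method). Shox2, a homeobox gene of thalamic neurons, had 80 CPM in knockout 7, 26.5 CPM in knockout 8 and 18.5 CPM in knockout 19, and at most 2.14 CPM in the other knockouts, against at most 4.29 CPM in wild types. Library 7 was the highest of the 12 for all 17 thalamic genes.

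The other 15 thalamic genes ranged in log2 difference between 0.51 and 3.13. Lhx9, another homeobox gene of the caudal thalamus, had a log2 difference of 3.13 (SE 1.01), Tnnt1 2.58 (SE 1.04), Rgs16 2.21 (SE 0.77) and Ntng1, an axon guidance gene, 2.03 (SE 0.74). Synpo2 stood at 1.69 (SE 0.61), Slc17a6, the vesicular glutamate transporter of subcortical neurons, at 1.58 (SE 0.79), and Lef1 at 1.39 (SE 0.53). Plekhg1 (1.23), Tcf7l2 (1.21), Ramp3 (1.20) and Rora (1.15) followed, and Calb2 (0.85), Gbx2 (0.58), Amotl1 (0.54) and Adarb1 (0.51) were closest to 0. None of these passed the threshold. Without knockout 6, 18 or 21, which hold the lowest levels among the knockouts, the count of 10 was 14, 15 and 15. Over all genes 690, 561 and 581 were higher at an unadjusted p under 0.05 in these fits, against 515 with every library. Without knockout 7 the list median was 0.72, with 1 listed gene at that p and 254 of all 18714 genes higher. Without knockout 7 and wild type 1 the median was 0.64 with 0 listed genes at that p. Without knockouts 7, 8 and 19 it was -0.22 with 0 listed genes. In males the list median was -0.68. Of the 17 genes 14 had an unadjusted p under 0.05 for the sex by genotype interaction, against 8.88% of all genes, and 0 were called. In bulk tissue fewer cells of a type and less RNA per cell cannot be told apart, for this list and all that follow.

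Markers of striatal projection neurons, which lie to the front and side of the bed nucleus, showed the opposite order. All 17 had a negative log2 difference, with a median of -0.50, and 1 of them, the receptor gene Gpr149, was lower at an unadjusted p under 0.05 (log2 difference -0.38, SE 0.14). The mean level of the list was 3.73 in knockout 7, 4.98 in knockout 8 and 5.70 to 6.61 in the other knockouts, against 7.45 in wild type 1 and 5.77 to 6.14 in the other wild types. Ppp1r1b, which encodes the dopamine-regulated phosphatase inhibitor DARPP-32, had 16.5 CPM in knockout 7 and 110 to 550 CPM in the other knockouts, against 987 CPM in wild type 1 and 250 to 379 CPM in the other wild types. The dopamine receptor gene Drd1 had a median of 40.2 CPM in knockouts and 49.2 CPM in wild types, and Adora2a, the adenosine receptor of indirect-pathway neurons, 47.8 CPM in knockouts and 64.6 CPM in wild types. Library 7 was the lowest of the 12 for all 17 genes and wild type 1 the highest for 16. The list median was -0.11 without wild type 1, -0.33 without knockout 7 and 0.10 without both, and 9 genes had an unadjusted p under 0.05 without knockout 21 (median -0.73). In males it was -0.03.

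The other striatal genes spanned log2 differences of -0.97 (Ptpn7, SE 0.53) to -0.33 (Rxrg, SE 0.23). Pde10a, a striatal phosphodiesterase, stood at -0.73 (SE 0.40), Adora2a, given above by its level, at -0.71 (SE 0.50), Rgs9 at -0.70 (SE 0.45) and Drd2 at -0.60 (SE 0.38). Bcl11b (-0.50), Syndig1l (-0.49), Rasd2 and Rarb (-0.43 each), Gng7 (-0.41), Gpr6 (-0.38) and Adcy5 (-0.37) were closer to 0. With the thalamic and striatal levels of each library as covariates 1 gene, Fkbp5, was called, at a log2 fold change of -1.84, so its difference was as large with these levels in the fit.

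**Figure D2:**
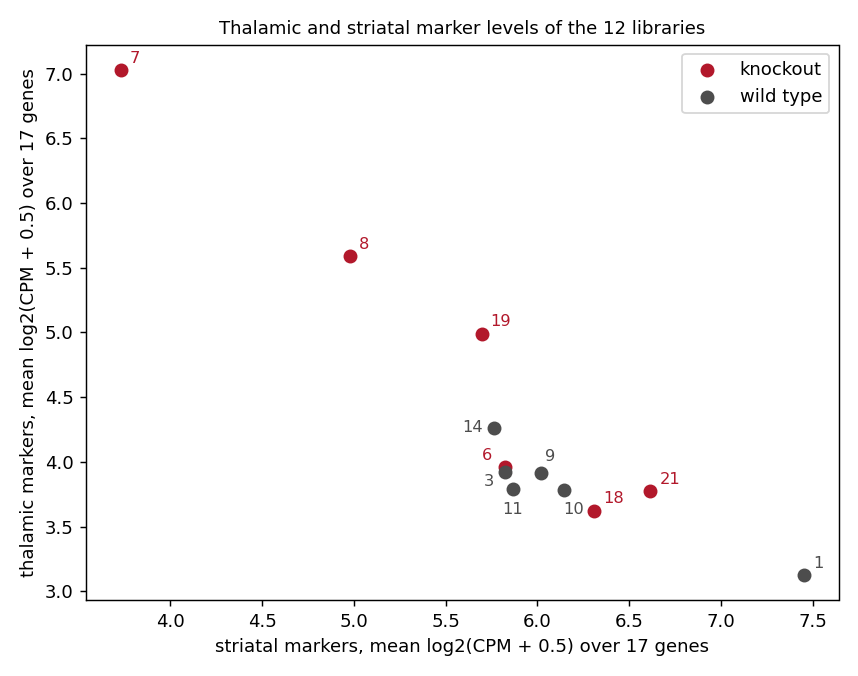
Mean log2(CPM + 0.5) of 17 striatal markers (x axis) against that of 17 thalamic markers (y axis) in each library, knockouts in red and wild types in grey, labelled by number. Knockouts 7 and 8 lie at the thalamic end and wild type 1 at the striatal end, while 5 wild types and knockouts 6, 18 and 21 lie between.

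Genes of other neighbouring tissue also differed by library. Of 8 tested hypothalamic and preoptic markers 6 were positive and 2 negative. At an unadjusted p under 0.05, 4 of the 8 were higher in knockouts, against 2.78% of all genes, with a list median of 0.93. Oxt, the oxytocin gene, had 24.8, 20.4, 14.7 and 19.2 CPM in knockouts 7, 18, 19 and 21 and 1.68 and 0.692 CPM in knockouts 6 and 8, against 1.15 to 11.2 CPM in wild types (log2 difference 1.73, SE 0.83). Otp, a homeobox gene of hypothalamic neuroendocrine neurons, had a median of 5.92 CPM in knockouts and 2.64 CPM in wild types (log2 difference 1.36, SE 0.57), and Sim1 (1.53) and Fezf1 (1.54), both transcription factors of the hypothalamus, stood in the same direction. Without knockout 7 (median 0.56) or without wild type 10 (0.83) 0 of the 8 had an unadjusted p under 0.05, and 1 had without wild type 1 (0.71). Of 9 tested pallial glutamatergic markers 7 were positive and 2 negative, and 2 of the 9 were higher at an unadjusted p under 0.05, with a median of 0.75. These were Slc17a7, the vesicular glutamate transporter of cortical neurons, at 1.95 (SE 0.74) and Nrn1 at 1.47 (SE 0.65), with the highest levels in knockouts 7 and 19 for Slc17a7 (161 and 81.0 CPM, against at most 20.7 CPM in wild types). Without knockout 7 the count was 0 of 9 and the median 0.52, and with the thalamic and striatal levels as covariates 0 of 9 and 0.45.

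Markers of basal forebrain cholinergic neurons, which border the bed nucleus from below, were lower in knockouts for all 8 listed genes. At an unadjusted p under 0.05, 7 of the 8 were lower, against 2.88% of all genes, with a list median of -0.84. Chat, the acetylcholine-synthesising enzyme, had 35.5, 3.15, 38.9, 16.6, 18 and 23.0 CPM in knockouts 6, 7, 8, 18, 19 and 21, against 32.5, 40.7, 61.1, 53.0, 31.5 and 37.8 CPM in wild types 1, 3, 9, 10, 11 and 14. Knockouts 7, 18, 19 and 21 lay below every wild type, and knockouts 6 and 8 lay among them. The log2 fold change was -0.92 (SE 0.35, unadjusted p = 0.014, adjusted p = 0.843 in the edgeR quasi-likelihood test, Benjamini-Hochberg method). The homeobox gene Gbx1 stood at -1.0 (SE 0.39), the choline transporter Slc5a7 at -0.81 (SE 0.31) and Ache, the esterase also made by other neurons, at -0.19 (SE 0.12). In males the list median was 0.26, and all 8 genes had an unadjusted p under 0.05 for the sex by genotype interaction, against 8.88% of all genes, with none past the adjusted threshold. Without knockout 7 and wild type 1 the count was 8 of 8 and the median -0.73. The share of all genes that were lower in that fit is not reported here. With the thalamic and striatal levels as covariates the count was 4 of 8 and the median -0.64, with 616 of all 18547 genes lower. In a fit of the 12 female libraries alone the count was 3 of 8 and the median -0.84, with 519 of all 17614 genes lower. Apart from these values, the part of dissection in this difference was not tested.

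Transcription factors that pattern the subpallium lay in both directions. Lhx8 and Nkx2-1, which specify neurons of the medial ganglionic eminence including the cholinergic ones, were lower in knockouts, at a median of 19.7 CPM in knockouts and 33.2 CPM in wild types for Lhx8 (log2 difference -0.84, SE 0.32) and 23.2 CPM in knockouts and 35.0 CPM in wild types for Nkx2-1 (-0.62, SE 0.27). Zic1, Zic2 and Zic4, zinc finger genes of septal and thalamic neurons, were higher, at 0.90 (SE 0.42), 1.21 (SE 0.45) and 1.10 (SE 0.42). Zic2 had 54.0 CPM in knockout 7 and 9.79 to 25.4 CPM in the other knockouts, against 6.43 to 14.1 CPM in wild types. Of the 13 genes of the list 3 were higher and 2 lower at an unadjusted p under 0.05, with a median of 0.28. Without knockout 7, 0 were higher and 2 lower, with the thalamic and striatal levels as covariates 1 higher and 1 lower (median 0.08), and in the 12 female libraries alone 3 higher and 0 lower.

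The genes that define GABAergic neurons had close levels in both groups. Of the 14 listed genes 0 had an unadjusted p under 0.05, 7 were positive and 7 negative, and the median was -0.01. Gad2 had a log2 difference of 0.11 (SE 0.11, 95% interval -0.12 to 0.34), Gad1, the other GABA-synthesising enzyme, -0.05 (SE 0.17, -0.40 to 0.30), and Slc32a1, the vesicular GABA transporter, -0.08 (SE 0.11). The mean level of the list was 5.86 in knockout 7 and 6.42 to 6.6 in the other knockouts, against 6.21 to 6.49 in wild types.

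Among 14 GABA-A receptor subunits, the chloride channels through which these neurons act, 2 were lower in knockouts at an unadjusted p under 0.05 and 0 were higher, with a list median of 0.10. Of 15 ionotropic glutamate receptor subunits 0 had an unadjusted p under 0.05, and the median was -0.0018.

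Neuropeptides of the extended amygdala gave 3 of 19 tested genes with a higher level at an unadjusted p under 0.05. Cck had 93.0 CPM in knockout 7, 47.2 CPM in knockout 19 and 9.54 to 29.1 CPM in the other knockouts, against 9.25 to 13.5 CPM in wild types (log2 difference 1.66, SE 0.58). Adcyap1, the gene of the stress peptide PACAP, had a median of 5.06 CPM in knockouts and 2.53 CPM in wild types (1.52, SE 0.60), and Oxt was the third. Without knockout 7, and likewise without knockout 7 and wild type 1 or with the thalamic and striatal levels as covariates, 0 of the 19 had an unadjusted p under 0.05. Peptides of bed nucleus GABAergic neurons had overlapping groups. Sst, the somatostatin gene, had a median of 225 CPM in knockouts and 204 CPM in wild types, Penk, the enkephalin gene, 266 CPM in knockouts and 307 CPM in wild types, and Pdyn, the dynorphin gene, 85.1 CPM in knockouts and 80 CPM in wild types. Crh, the corticotropin-releasing hormone gene, had a log2 difference of 0.23 (SE 0.36), and its receptor gene Crhr1 -0.16 (SE 0.20). Of 25 peptide and stress hormone receptors 14 were positive and 11 negative, with a median of 0.02. At an unadjusted p under 0.05, 2 were higher and 1 lower, against 2.78% and 2.88% of all genes. Vipr2, a receptor for VIP and PACAP, stood at 1.75 (SE 0.55), with 27.4 CPM in knockout 7 and 2.10 to 10.5 CPM in the other knockouts, against 1.72 to 3.46 CPM in wild types. The neuropeptide Y receptor Npy1r stood at 0.36 (SE 0.17) and the substance P receptor Tacr1 at -0.51 (SE 0.19).

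Genes that glucocorticoids induce are the readout closest to the known role of FKBP51. The receptor binds an inverted repeat, and a loose form of it, GNACA, NNN and TGTNC joined in this order, which reads the same on both strands, was looked up in the RefSeq promoter windows of GRCm38.p6, which run from 250 bases before to 50 bases after each start. It was found in 4 of the 22 listed genes that have a window (18.2%), and in 145 of all 27025 genes (0.537%). The full repeat, AGAACA, NNN and TGTTCT joined, which contains the loose form, was found in 1 listed gene, Sgk1, and in 3 genes in all (0.0111%). The single window of Fkbp5 held neither, which says only that these letters are not in that window. The 61 bases around each match are shown because these are the 4 listed genes whose window holds the searched letters, with the match in capitals, 5′ to 3′ on the strand of the gene. The windows are chr10:21993678-21993738 on the plus strand for Sgk1, chr8:94178971-94179031 on the plus strand for Mt1, chr4:133240613-133240673 on the plus strand for Map3k6 and chr14:8309861-8309921 on the minus strand for Fam107a.
Sgk1: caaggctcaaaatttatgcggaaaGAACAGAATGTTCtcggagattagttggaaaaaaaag
Mt1: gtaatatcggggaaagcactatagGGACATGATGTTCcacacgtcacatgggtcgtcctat
Map3k6: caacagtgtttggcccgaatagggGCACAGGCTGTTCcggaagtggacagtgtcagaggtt
Fam107a: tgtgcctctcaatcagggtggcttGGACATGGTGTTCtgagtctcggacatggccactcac

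Of 24 tested glucocorticoid-induced genes 6 were higher in knockouts at an unadjusted p under 0.05, against 2.78% of all genes, and none was lower, with a list median of 0.16. The mean level of the list was 5.04 in knockout 6, 4.49 in knockout 21 and 4.31 to 4.39 in the other knockouts, against 4.17 to 4.40 in wild types. Library 6 was the highest of the 12 for 15 of the 24 genes. Without it 2 of 24 were higher at an unadjusted p under 0.05, against 690 of all 18722 genes, and the median was 0.05. In a fit of the 12 female libraries alone 3 of 24 were higher at that p, against 530 of all 17614 genes, and the median was 0.16. In males the median was -0.01 and 0 of 24 were higher at an unadjusted p under 0.05, against 2.65% of all genes.

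Sgk1, a kinase gene induced by glucocorticoids in many tissues, had 197, 64.7, 58.9, 84.4, 70.4 and 87.3 CPM in knockouts 6, 7, 8, 18, 19 and 21, against 90.9, 67.5, 54.0, 62.8, 49.9 and 51.9 CPM in wild types 1, 3, 9, 10, 11 and 14. Knockout 6 stood alone and the other libraries overlapped (log2 fold change 0.58, SE 0.22, unadjusted p = 0.0132, adjusted p = 0.843 in the edgeR quasi-likelihood test, Benjamini-Hochberg method). The other 3 genes with the printed letters were also highest in knockout 6: Mt1, a metallothionein, had 246 CPM there and 155 to 192 CPM in the other knockouts, against 170 to 198 CPM in wild types. Map3k6 had 6.05 CPM in knockout 6 and 2.03 to 3.59 CPM in the other knockouts, against 2.14 to 3.63 CPM in wild types. Fam107a, an actin-binding stress response gene, had 448 CPM in knockout 6 and 219 to 305 CPM in the other knockouts, against 204 to 279 CPM in wild types. These 3 had unadjusted p-values of 0.833, 0.443 and 0.114 by edgeR's quasi-likelihood test for Mt1, Map3k6 and Fam107a, and were chosen for the letters after values were seen.

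Plin4, a lipid droplet gene without the letters in its window, had 63.4 CPM in knockout 6 and 6.97 to 8.99 CPM in the other knockouts, against 5.68 to 11.4 CPM in wild types (log2 difference 1.15, SE 0.42). Hif3a, a hypoxia-inducible factor subunit, had 25.5 CPM in knockout 6 and 7.05 to 10.1 CPM in the other knockouts, against 5.23 to 8.57 CPM in wild types (0.69, SE 0.25). Both values rest on the same library. Errfi1, an inhibitor of EGF receptor signalling, was the listed gene whose groups did not overlap: 31.9, 35.9, 31.0, 29.9, 29.3 and 30.0 CPM in knockouts 6, 7, 8, 18, 19 and 21, against 24.5 to 29.2 CPM in wild types. The gap between the lowest knockout and the highest wild type was small, and the log2 fold change was 0.24 (SE 0.08, unadjusted p = 0.00584, adjusted p = 0.813 in the edgeR quasi-likelihood test, Benjamini-Hochberg method). Nfkbia, the inhibitor of NF-kappa-B, stood at 0.21 (SE 0.10).

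Mt2, the second metallothionein, differed within the wild types. It had 3.02 to 4.34 CPM in the 6 knockouts, against 3.69 and 4.13 CPM in wild types 1 and 3 and 0.479 to 1.43 CPM in wild types 9, 10, 11 and 14. Its log2 fold change was 0.97 (SE 0.34), and it passed the threshold in limma with library quality weights (1.58, adjusted p = 0.0348). The induced genes Tsc22d3 (0.23, SE 0.14), Per1 (0.11, SE 0.17) and Klf9 (0.09, SE 0.14) had unadjusted p-values of 0.116, 0.532 and 0.535 by edgeR's quasi-likelihood test.

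**Figure D3:**
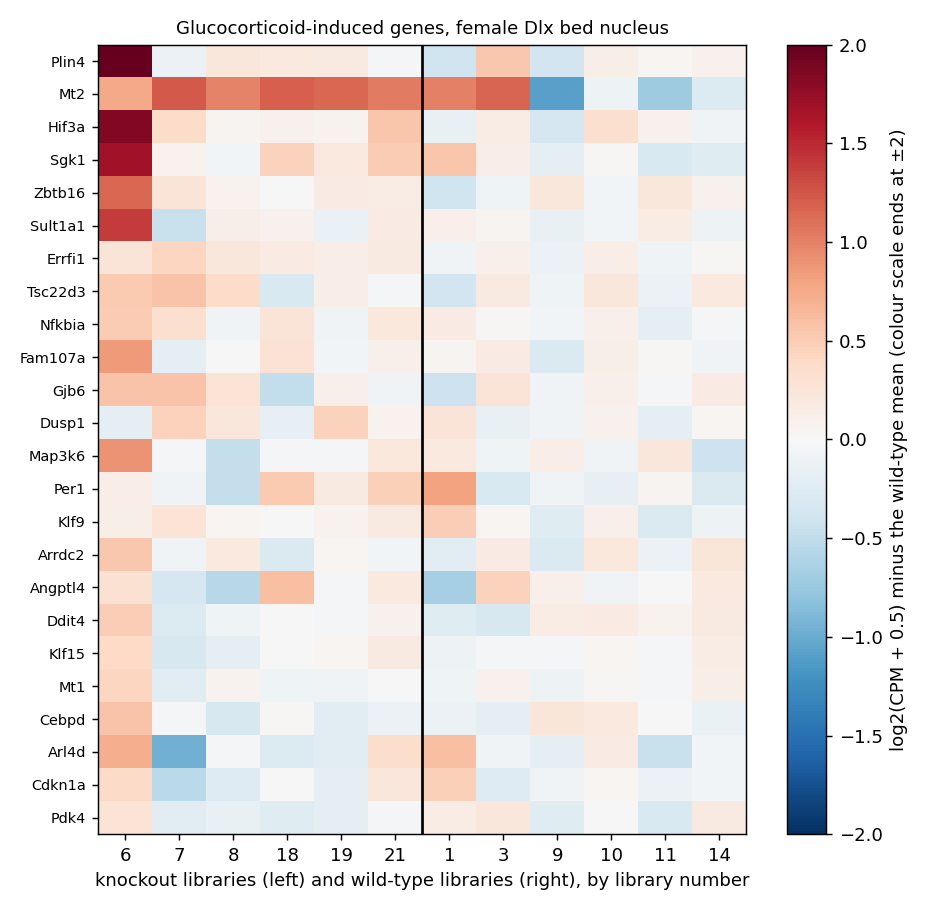
Level of 24 glucocorticoid-induced genes in each library as log2(CPM + 0.5) minus the mean of the wild types, with knockouts left of the line and wild types right of it, genes ordered by log2 fold change. Knockout 6 is the highest library for 15 of the 24 genes, and Mt2 separates wild types 9, 10, 11 and 14 from the rest.

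Of 22 steroid receptors and HSP90 co-chaperones 1 had an unadjusted p under 0.05, with a median of 0.06. Nr3c1, the glucocorticoid receptor, had a median of 111 CPM in knockouts and 97.5 CPM in wild types (0.19, SE 0.12), and Nr3c2, the mineralocorticoid receptor, stood at -0.08 (SE 0.10). Fkbp4, whose product FKBP52 competes with FKBP51 for HSP90, stood at 0.01 (SE 0.12), and Hsp90ab1, the constitutive HSP90, at 0.01 (SE 0.06, 95% interval -0.12 to 0.14). Esr1, the oestrogen receptor alpha, had a median of 10.2 CPM in knockouts and 8.0 CPM in wild types (0.49, SE 0.34). Of 11 sex steroid receptors and enzymes 10 were positive, 1 at an unadjusted p under 0.05, with a median of 0.33, and 0.13 without knockout 7 and wild type 1. Of 18 AKT, PHLPP and mTOR genes, a pathway in which FKBP51 acts as a scaffold, 1 was lower at an unadjusted p under 0.05, Akt1 at -0.13 (SE 0.06), and 0 without knockout 7, and the median was -0.04.

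Microglial genes were lower in 5 of the 6 knockouts. Of 22 listed genes 21 had a negative log2 difference, 12 of them at an unadjusted p under 0.05 against 2.88% of all genes, with a median of -0.29. The mean level of the list was 5.51 in knockout 6 and 5.2, 5.10, 4.98, 4.90 and 4.69 in knockouts 8, 21, 19, 18 and 7, against 5.28 to 5.47 in wild types. The 5 knockouts other than library 6 lay below every wild type, and knockout 6 lay above them. Csf1r, the receptor on which microglia depend for survival, had 196, 112, 162, 135, 138 and 153 CPM in knockouts 6, 7, 8, 18, 19 and 21, against 177 to 194 CPM in wild types. The log2 fold change was -0.33 (SE 0.10, unadjusted p = 0.00193, adjusted p = 0.813 in the edgeR quasi-likelihood test, Benjamini-Hochberg method).

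Ctss, a lysosomal protease, had 123 CPM in knockout 6 and 79.1 to 106 CPM in the other knockouts, against 108 to 134 CPM in wild types (log2 difference -0.39, SE 0.12). Cx3cr1, the fractalkine receptor, had 95.9 CPM in knockout 6 and 59.1 to 88.0 CPM in the other knockouts, against 89.5 to 104 CPM in wild types (-0.31, SE 0.10). The sialic acid lectin Siglech (-0.35, SE 0.11), the purinergic receptor P2ry12 (-0.27, SE 0.09) and Tmem119 (-0.31, SE 0.13), all enriched in microglia, stood in the same direction. Fcrls was the exception at 0.04 (SE 0.15). In males the median was 0.16, and 17 of the 22 had an unadjusted p under 0.05 for the sex by genotype interaction, against 8.88% of all genes and with none called.

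The microglial count depended on single libraries. It was 18 of 22 without knockout 6, 8 without knockout 7, 7 without knockout 18 and 8 without wild type 10. The count over all genes moved too. At an unadjusted p under 0.05, 535 of 18547 genes were lower with every library and 744 of 18722 without knockout 6. Without knockout 7 it was 358 of 18714 genes, and without knockout 18 it was 516 of 18722. The microglial count was 8 of 22 without knockout 7 and wild type 1 (median -0.23) and 4 of 22 without knockouts 7, 8 and 19 (median -0.18). With the thalamic and striatal levels as covariates it was 8 of 22 (median -0.21). Genes chosen by their p over all genes include others that microglia express: Cd300a, an inhibitory receptor of myeloid cells, had 1.24 to 2.17 CPM in knockouts, against 2.29 to 3.77 CPM in wild types, and the groups did not overlap (-0.71, SE 0.15, adjusted p = 0.427 in the edgeR quasi-likelihood test, Benjamini-Hochberg method). Cd33, a sialic acid receptor, had 12.7 to 18 CPM in knockouts, against 17.9 to 22.4 CPM in wild types (-0.44, SE 0.12). The phosphatase gene Ptpn6 stood at -0.60 (SE 0.16) in females and 0.37 (SE 0.16) in males. Cd300a and Cd33 were picked by their p in this comparison and Ptpn6 by its p for the sex interaction. Their differences therefore add no separate support to those of the listed genes. Whether fewer microglia were in the tissue taken or each held less of these transcripts was not tested.

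**Figure D4:**
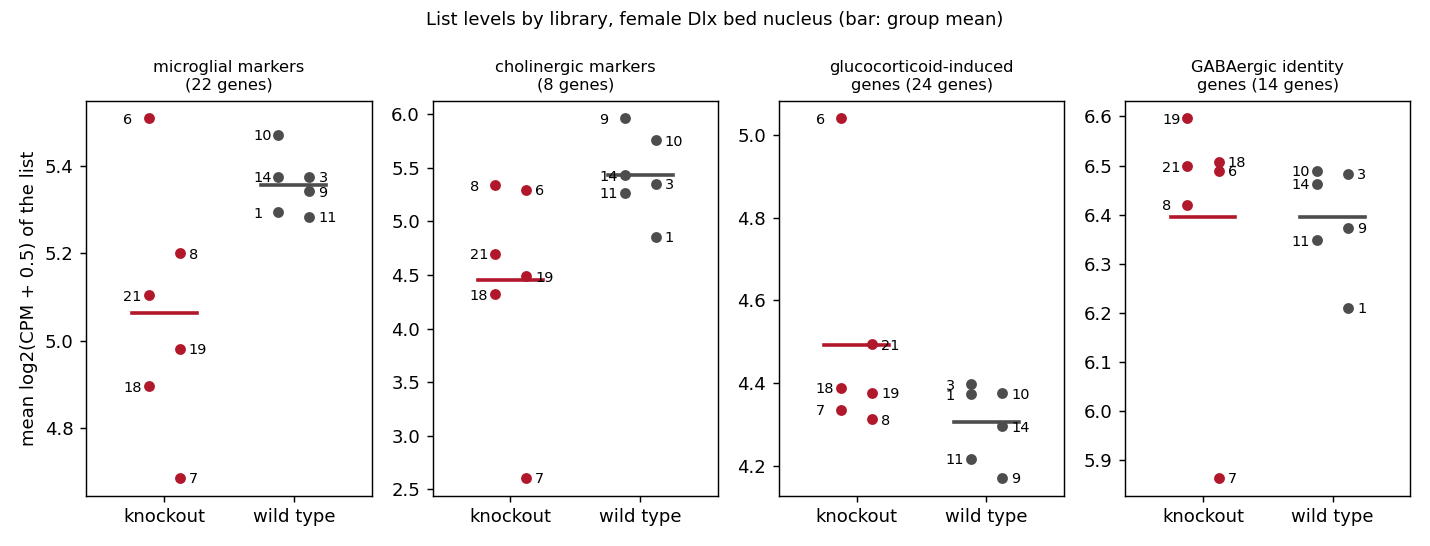
Mean log2(CPM + 0.5) of 4 gene lists in each library, knockouts left and wild types right, labelled by number, with a bar at the group mean. Knockout 6 is the highest library for the microglial and glucocorticoid-induced lists, and knockout 7 the lowest for the microglial, cholinergic and GABAergic lists.

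The medians were -0.04 for 13 astrocyte markers, -0.11 for 20 oligodendrocyte and precursor markers, 0.01 for 16 vessel markers and -0.01 for 9 meningeal markers. Those of 28 nuclear oxidative phosphorylation genes (-0.07), 31 ribosomal protein genes (-0.08) and 13 mitochondrially encoded genes (-0.07) were no larger. Of these lists 23 of 28, 25 of 31 and 11 of 13 genes were negative, with 0, 1 and 1 lower at an unadjusted p under 0.05. Of the 20 oligodendrocyte and precursor markers 18 were negative, 1 of them at that p. Library 7 was the lowest of the 12 for 30 of the 31 ribosomal genes. Of 21 immediate early genes, which report recent neuronal activity, Egr2 (-1.14, SE 0.48) and Nr4a3 (-0.48, SE 0.23) were lower at an unadjusted p under 0.05, and Fos stood at -0.03 (SE 0.21). Egr2 had 0.323 to 1.6 CPM in knockouts, against 4.70 CPM in wild type 1 and 0.621 to 2.12 CPM in the other wild types. Without knockout 7 and wild type 1, 0 of the 21 had an unadjusted p under 0.05.

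The other lists of neighbouring cells and of immune genes lay further from 0, and each median changed sign when 1 library was left out. The median of 7 tested choroid plexus markers was -0.63, with 2 lower at an unadjusted p under 0.05, and 0.03 without wild type 11. That of 8 tested ependymal cilia markers, genes of the cells that line the ventricles, was 0.55, with 7 positive and 0 at an unadjusted p under 0.05, and -0.29 without knockout 21. That of 14 interferon, MHC class I and complement genes was 0.25, with 1 lower at an unadjusted p under 0.05, and -0.06 without knockout 7.

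**Figure D5:**
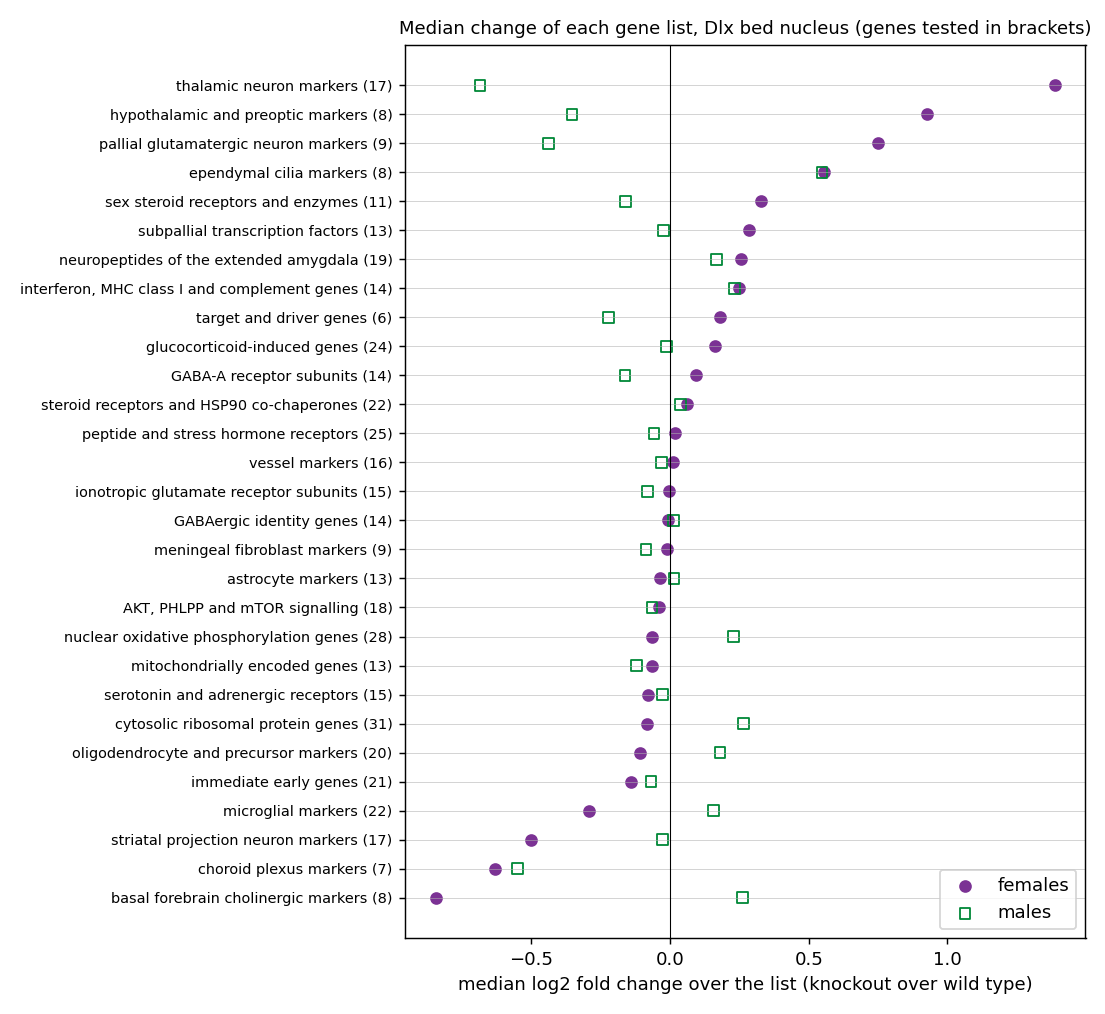
Median log2 fold change of each gene list in females (filled) and males (open squares) of the Dlx bed nucleus, ordered by the value in females, with the number of genes tested in brackets. Thalamic markers lie highest at 1.39 in females and at -0.68 in males, and cholinergic markers lowest at -0.84 in females and at 0.26 in males.

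The 12 genes with the smallest p among those higher in knockouts were led by Net1, a guanine nucleotide exchange factor for RhoA. Net1 had 14.3 to 19.3 CPM in knockouts, against 9.71 to 14.1 CPM in wild types, and the groups did not overlap (log2 difference 0.44, SE 0.11, adjusted p = 0.813 in the edgeR quasi-likelihood test, Benjamini-Hochberg method). The groups were also separate for Rad51ap1, a DNA repair gene (0.70, SE 0.18), Cited2, a transcriptional coregulator (0.38, SE 0.11), and the predicted gene Gm14827 (0.25, SE 0.07). Rasd1, a Ras-related gene named for its induction by dexamethasone, had 47.4 CPM in knockout 7, 16.7 CPM in knockout 8 and 14.4 CPM in knockout 19, and 3.53 to 6.96 CPM in the other knockouts, against 2.03 to 5.04 CPM in wild types (2.21, SE 0.65). The 3 knockouts with the highest Rasd1 were those with the highest thalamic markers, whose part in its level was not tested. The remaining genes were Bambi (0.74), Cdan1 (0.29), Hnrnpa3 (0.26) and the 4 that follow.

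Ebf2 and Ebf3, transcription factors of migrating neurons, were high in 4 knockouts. Ebf2 had 7.88, 9.91, 6.86 and 7.57 CPM in knockouts 7, 18, 19 and 21 and 1.05 and 0.738 CPM in knockouts 6 and 8, against 0.0376 to 1.57 CPM in wild types (log2 difference 2.74, SE 0.75). Ebf3 had 5.37 to 13 CPM in the same 4 knockouts and 2.39 and 2.21 CPM in knockouts 6 and 8, against 1.28 to 2.75 CPM in wild types (1.74, SE 0.46). Those 4 knockouts were also the ones with the highest Oxt and with Chat below every wild type. In males Ebf2 stood at -1.68 (SE 0.72) and Ebf3 at -1.12 (SE 0.47). Car8 (0.63, SE 0.17) and Plagl1, an imprinted zinc finger gene (0.58, SE 0.17), were also among the 12.

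Of the 12 genes chosen as lower in knockouts the smallest p after Fkbp5 was that of Gm11808, a predicted gene whose reads could be shared with near-identical copies. It had 4.54, 3.39, 3.32, 4.04, 3.61 and 2.68 CPM in knockouts 6, 7, 8, 18, 19 and 21, against 4.29 and 3.48 CPM in wild types 1 and 3 and 10.5, 13.7, 11.8 and 9.10 CPM in wild types 9, 10, 11 and 14. Wild types 1 and 3 lay among the knockouts, the same division of wild types as for Mt2. The log2 fold change was -1.29 (SE 0.25, adjusted p = 0.293 in the edgeR quasi-likelihood test, Benjamini-Hochberg method). It passed the threshold in DESeq2 (adjusted p = 0.00265) and in edgeR without wild type 1 (0.0255) or without wild type 3 (0.00666). Gm10709, another predicted gene, had 0.286 to 1.05 CPM in knockouts, against 1.02 and 0.348 CPM in wild types 1 and 3 and 1.84 to 2.83 CPM in wild types 9, 10, 11 and 14. No label separates these wild types from the others, and a batch behind the division was not tested.

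Hpgd, the enzyme that inactivates prostaglandins, had 3.84 to 6.50 CPM in knockouts, against 6.78 to 8.96 CPM in wild types, and the groups did not overlap (log2 difference -0.52, SE 0.13, adjusted p = 0.813 in the edgeR quasi-likelihood test, Benjamini-Hochberg method). B3gnt2, a glycosyltransferase, had 1.91 to 3.55 CPM in knockouts, against 3.48 to 6.73 CPM in wild types (-0.79, SE 0.17), and Galnt14, which starts mucin-type glycans, 11.4 to 17.6 CPM in knockouts, against 15.6 to 22.6 CPM in wild types (-0.47, SE 0.12). Ttr, the transthyretin gene of the choroid plexus, rested on 1 library: it had 0.0451 to 1.24 CPM in knockouts, against 484.1 CPM in wild type 11 and 0 to 10.7 CPM in the other wild types. Its fitted log2 difference of -7.46 (SE 1.83) therefore describes that library. The predicted genes Gm5417 (-1.30), Gm10736 (-2.18) and Gm26973 (-1.42) complete the 12, which also hold Fkbp5, Cd300a and Cd33.

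Genes beside the deleted locus were looked at on their own. Within 1 Mb of Fkbp5, 48 genes were tested besides it, and 0 were called. At an unadjusted p under 0.05, Mapk13, a p38 kinase, was higher (0.76, SE 0.32), and Tead3 (-0.48, SE 0.18), AC126937.2 (-0.35, SE 0.17) and Fgd2, a guanine nucleotide exchange factor of myeloid cells (-0.42, SE 0.12), were lower, with a median of -0.02 for the 48.

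The effect in females was set against the other groups gene by gene. No gene passed the threshold for the sex by genotype interaction, where 1647 of 18547 genes (8.88%) had an unadjusted p under 0.05 by edgeR's quasi-likelihood test, and DESeq2 also called 0. Its smallest p-values belonged to Gm11808, Ebf3 and Ptpn6, with female minus male differences of -1.64 (SE 0.36), 2.87 and -0.97, and Ebf2 came next at 4.42. Against the hippocampus of Dlx females 1 of 18517 genes was called (0.0054%), and against the bed nucleus of Nex females 1 of 19433 (0.00515%), Fkbp5 in both. At an unadjusted p under 0.05 the region interaction held 725 genes (3.92%), and the line interaction 428 (2.2%), 212 higher (1.09%) and 216 lower (1.11%). Mmp25, a membrane protease, and Vdr, the vitamin D receptor, came next for the region, with Mmp25 at 0.222 to 0.587 CPM in bed nucleus knockouts, against 0.645 to 1.02 CPM in bed nucleus wild types, without overlap, and Cd300a and Cd101 came next for the line. These p-values do not show that the other genes responded alike across sexes, regions or lines.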

How the data were processed

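Total RNA of frozen mouse brain tissue was sequenced. The authors deposited whole-number read counts per gene, one column per library, and HISAT2 2.0.5, featureCounts 1.5.0-p3 and DESeq2 are named in the submitters' processing notes. The genome build and whether counting used strand are not given in the sources used here; 98.3% of the 54532 genes in the table have the coordinates of a GRCm38 annotation. Another 95 columns of per-sample values, normalized and without decimal marks, were not used.

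Counts were fitted with edgeR 4.0.16 in R 4.3.3 (low counts filtered by group, TMM scaling, quasi-likelihood test, Benjamini-Hochberg adjustment over all genes tested, threshold 0.05). The fit held all groups of the Dlx bed nucleus, which share 1 estimate of the spread, and the contrast was taken in females. Interactions used the Dlx bed nucleus for sex, Dlx females for region and all bed nucleus groups for line. CPM are counts over TMM-scaled library totals, and list levels are means of log2(CPM + 0.5). Named genes are Fkbp5, Dlx5, Dlx6, every called gene, the 12 with the smallest p in each direction at a mean of at least 1 CPM, thalamic and striatal markers, the leading members of each of 29 lists, genes within 1 Mb of Fkbp5 at an unadjusted p under 0.05 and the leading genes of each interaction. The libraries and lists were chosen with earlier results of these data known. Alternatives used DESeq2 1.42.0, limma 3.58.1 and sva 3.50.0. Leaving out knockout 7 together with wild type 1, and knockouts 7, 8 and 19 together, was chosen after seeing the data. The fits were tested on simulated data. The simulated counts were drawn independently, with the same spread for every gene. They therefore do not show how the fits behave where a library shifts many genes together. Counting depth limits the precision of genes under about 1 CPM. Some genes of the lists are not reported here by name.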

Additional observations from a re-analysis of the deposited data

Results flagged for a closer look

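Among groups of 6 libraries, 15 of 106 had a library far from the others by Dixon's test at the 95% level. Of the 106, 58 were levels of lists that share libraries and some genes. The rest were levels of genes chosen by their p in these libraries. A rate of about 5 in 100 holds for independent groups of normal values, so it is no yardstick for this count. Knockout 6 stood at 5.04 for the glucocorticoid-induced genes, on the mean log2(CPM + 0.5) scale. Knockout 7 stood at 5.86 for the GABAergic identity genes, 4.25 for the interferon, MHC class I and complement genes and 2.61 for the cholinergic markers. Wild type 1 stood at 4.34 for the subpallial transcription factors, 7.45 for the striatal markers and 7.83 for the astrocyte markers. Knockout 21 stood at 2.59 for the ependymal cilia markers, and wild type 11 at 1.68 for the same list and at 4.29 for the choroid plexus markers.

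Single genes gave 5 such libraries. Ttr had 1.24 CPM in knockout 8 and 484.1 CPM in wild type 11. Gm10736, a predicted gene, had 9.91 CPM in wild type 10. Cited2 had 55.8 CPM and Rasd1 47.4 CPM in knockout 7.

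The effect on Fkbp5 differed between groups by a test of the interaction. It was -1.84 on the log2 scale for the bed nucleus minus the hippocampus, and -1.75 for the Dlx minus the Nex line.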

How the results depend on the processing

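Fkbp5 kept its call and its direction under every alternative run, with log2 fold changes of -1.85 to -1.55. The count of called genes was 1 in the comparison as reported, 2 with DESeq2 (Gm11808 added), 4 in limma with library quality weights (Gm6863, Ccdc61 and Mt2 added), and 1 to 2 when each library was left out in turn, with 2 without wild type 1 or wild type 3. For the region interaction the count was 0 to 1 when each library was left out. The labels do not say whether libraries of both regions with the same number come from 1 animal: the correlations of 11 same-numbered pairs ran between -0.14 and 0.19, 4 of them best with their own number. With the replicate block the region count was 0 and the effect on Fkbp5 was -1.82 (adjusted p = 0.416, edgeR's quasi-likelihood test). For the line interaction the count was 2 without a filter on low counts, Pmch being added. No gene passed for the sex interaction under any alternative run. Of the list medians recomputed, 588 shifted by less than the SD of the list level between libraries of a group, and 21 by more. That SD is wide for some lists, so the thalamic shift from 1.39 to 0.72 without knockout 7 is among the 588. Of the named genes' values 4482 kept their direction and their call or lack of one, whatever their size. Another 236 changed direction, and 4 passed the threshold anew. The causes were not tested. Levels under about 1 CPM are limited by depth.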
